A study of Rattus norvegicus with 6 samples.

Results

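Axon guidance genes were examined in cultured progenitor cells of the embryonic rat cortex, profiled by polyA RNA-seq. The genes were taken by name from the gene tables of the 4 libraries and comprise the ephrins (*Efna*, *Efnb*) and Eph receptors (*Epha*, *Ephb*), the semaphorins (*Sema*) with the plexins (*Plxn*) and neuropilins (*Nrp*), the Slits with the Robo receptors, and the netrins (*Ntn*) with *Dcc* and the *Unc5* receptors. Of 17337 gene names in the tables, 61 matched, 33 ligands and 28 receptors. *Unc5cl* also carries the name pattern but is not known as a netrin receptor, and it is counted among the 28. Other genes of these families, such as *Plxna1*, *Plxna4*, *Plxnb1*, *Plxnc1*, *Efna3* and *Sema6a*, were not analysed here, so counts and sums of a family cover the matched names and not the whole family.

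Cortices of embryonic day 14 Sprague Dawley rats were left untreated, apart from growth with bFGF and EGF, and cells were routinely taken after passage 2. There were 2 biological replicates, A and B, each sequenced as 2 technical libraries (A1 and A2, B1 and B2). The cells are passaged cultures from embryos of either sex in a single condition, with no genotype given, so the replicates give the spread between cultures and not the effect of a treatment. The 2 Start-seq samples of the series were not analysed here. FPKM, fragments scaled to transcript length and library depth, is given as the mean over A and B after averaging the technical libraries, with the SD over n = 2 cultures.

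Guidance molecules steer growing axons and migrating neurons by attraction or repulsion. Ephrins are held on the surface of a cell and are read by Eph receptor tyrosine kinases on its neighbours, and ephrin-B proteins also signal into the cell that carries them. Semaphorins are read by plexins, for which neuropilins serve as co-receptors of the secreted class 3 semaphorins, while Slits repel through Robo receptors and netrins attract through Dcc or repel through Unc5. Many of these genes are also active in cortical progenitors before any axon is made, where Slit-Robo and Eph-ephrin signalling are known to influence division and the positioning of cells.

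Depth differed between libraries, with 22.7 to 24.4 units of mean read coverage for each FPKM in A1, A2 and B1 and 6.83 in B2. Fragment numbers per gene are not in the tables, so counting intervals could not be given. Among markers, *Sox2*, *Nes*, *Vim*, *Pax6* and the other 6 genes of a progenitor list all had at least 1 FPKM, and their summed level was 21049.7 and 23127 FPKM in A1 and A2 and 10114 and 10873 FPKM in B1 and B2. Most of that sum was *Fabp7*, and the other 9 markers summed to 4249.9 and 4569.7 FPKM in A and 3594 and 5388 FPKM in B, where the replicates overlap. All 12 mesenchymal and meningeal markers were also present, with summed levels of 785 and 759 FPKM in A and 2654 and 3854 FPKM in B, and 11 of 12 met the criteria for a difference between the replicates given further on. Without B2, 8 of 12 did, since *Ptgds*, *Aldh1a2* and *Zic1* then fell short. B1 and B2 were themselves far apart in these, with 8.18 and 292 FPKM for *Ptgds*, 71.2 and 369 FPKM for *Aldh1a2* and 84.9 and 184 FPKM for *Zic1*. The 10 neuronal markers summed to 194 to 249 FPKM, the 6 of the oligodendrocyte lineage to 253 and 278 FPKM in A and 694 and 352 FPKM in B, the 8 endothelial markers to 1.43 and 1.58 FPKM in A and 2.45 and 6.18 FPKM in B, and the 7 of microglia to 0.384 and 0.945 FPKM in A and 2.07 and 2.05 FPKM in B. No endothelial or microglial marker reached a mean of 1 FPKM, and *Cx3cr1* was listed at 0 in A1, A2 and B2, *Ptprc* and *Tyrobp* in A1 and *Itgam* in B2. In such bulk samples fewer cells of a type and less RNA per cell cannot be told apart.

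Most guidance genes were transcribed in these cells. A mean of at least 1 FPKM was found for 48 of the 61 (78.7%), against 60.5% of all gene names, and 14 had at least 10 FPKM. The 14 held 75.0% of the summed FPKM of the 61 genes. *Plxnb2*, a plexin for class 4 semaphorins, was the highest by the mean, followed by *Sema5b*, *Sema6c*, *Efnb1* and *Sema6d*. At the other end, 13 genes were below 1 FPKM, and 59 of the 61 had a value above 0 in every library. The gene nearest to the threshold from above was *Unc5a*, with 1.01 FPKM, and from below *Unc5b*, with 0.810 FPKM.

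**Figure D1:**
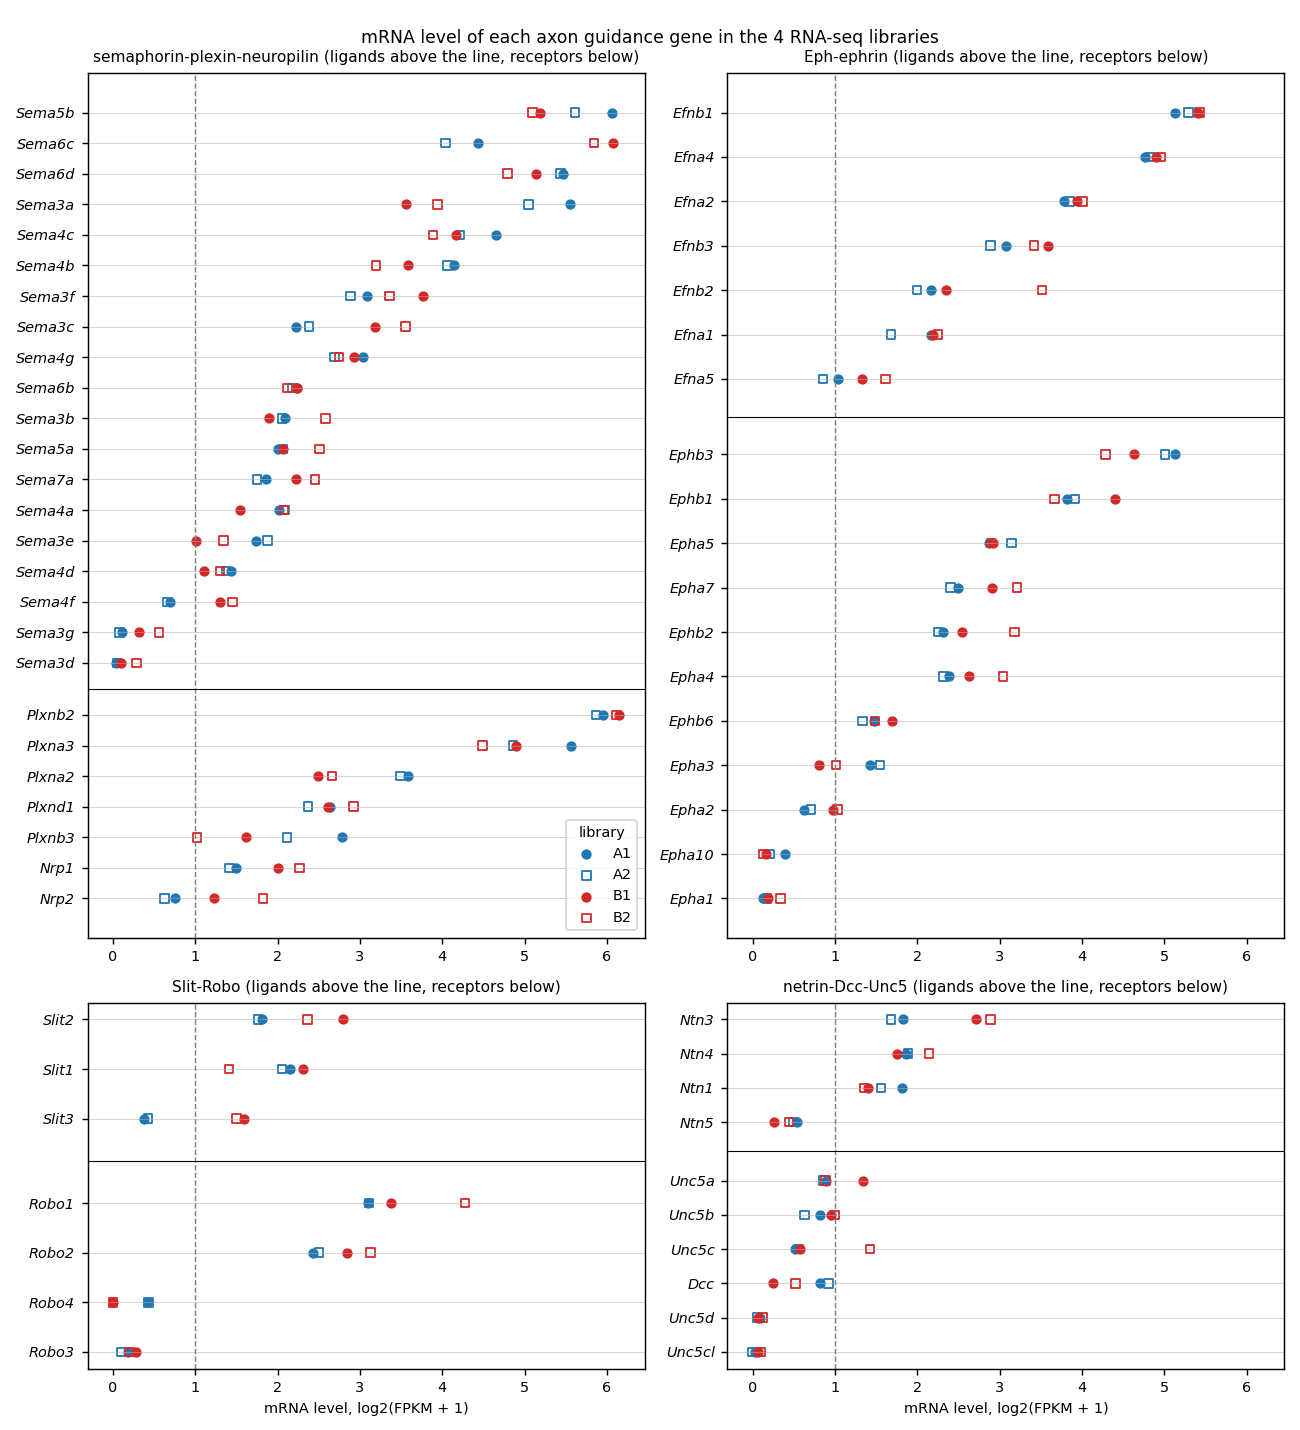
Each row is a gene, and the points are its level in the libraries A1, A2, B1 and B2 as log2(FPKM + 1), with the ligands of a family above the line and the receptors below it. The dashed line stands at 1 FPKM, and 48 of the 61 genes have a mean at or above that level.

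Of the matched ephrins, all 7 had at least 1 FPKM. *Efnb1*, a transmembrane ephrin-B on chromosome X (rn6, 68891227 to 68904034, plus strand), had 33.9 and 38.2 FPKM in A1 and A2 and 41.4 and 42.0 FPKM in B1 and B2, a mean of 38.9 ± 3.97 (SD, n = 2). *Efna4*, an ephrin-A anchored to the membrane by a lipid, had 26.2, 27.5, 28.8 and 30.1 FPKM in A1, A2, B1 and B2 (mean 28.1 ± 1.86). *Efna2* had 12.7, 13.4, 14.4 and 15.1 FPKM in the same order (mean 13.9 ± 1.16). The SD between cultures was small against these levels, and the order of the 3 ephrins was the same in each library.

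The remaining ephrins were *Efnb3* (8.62 ± 2.41 FPKM), *Efnb2* (5.25 ± 2.85), *Efna1* (3.26 ± 0.571) and *Efna5* (1.36 ± 0.606). Each of the 7 ephrins was higher in both libraries of replicate B than in either of replicate A, a pattern that 28.1% of the 10481 genes with at least 1 FPKM showed. The differences were small for most ephrins, from 0.13 for *Efna4* to 0.85 for *Efnb2* on the log2(FPKM + 1) scale. *Efnb2* had 3.49 and 2.99 FPKM in A1 and A2, 4.09 FPKM in B1 and 10.4 FPKM in B2, so its distance from replicate A lay mostly in B2, and without B2 the difference was 0.27.

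Among the 11 Eph receptors 8 had at least 1 FPKM. *Ephb3*, an EphB receptor on chromosome 11 (83527962 to 83546674, minus strand), was the highest, with 33.9, 31.1, 23.8 and 18.5 FPKM in A1, A2, B1 and B2 (mean 26.9 ± 8.03). *Ephb1* had 13.0, 14.1, 20.1 and 11.7 FPKM (mean 14.7 ± 1.65), and its libraries of A and B overlapped. *Epha5*, the highest EphA receptor by the mean of A and B, had 6.30, 7.82, 6.58 and 6.43 FPKM (mean 6.78 ± 0.391) and overlapped too, and in B2 *Epha7* and *Epha4* stood above it. The order *Ephb3*, *Ephb1*, *Epha5* was the same in all 4 libraries.

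Below these, *Epha7*, *Ephb2* and *Epha4* lay close together at means of 5.93 ± 2.08, 5.15 ± 1.82 and 5.14 ± 1.47 FPKM, and their order did not exceed the spread between cultures. *Ephb6*, whose kinase domain is inactive, had 1.83 ± 0.260 FPKM and *Epha3* had 1.34 ± 0.656 FPKM. *Epha2* (0.798 FPKM), *Epha10* (0.169 FPKM) and *Epha1* (0.156 FPKM) were under the threshold. *Epha1* overlaps *Zyx* on the opposite strand, which had 33.1 FPKM in A1 and 75.3 FPKM in B2, and since use of strand in the counting is not given in the sources used here, the origin of its reads is uncertain. The 4 EphB receptors summed to 48.6 ± 4.30 FPKM and the 7 EphA receptors to 20.3 ± 2.77 FPKM, a gap larger than the spread between cultures.

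The semaphorins were the largest group, with 17 of 19 at 1 FPKM or more. *Sema5b*, a transmembrane semaphorin with thrombospondin repeats on chromosome 11 (68307037 to 68435109, minus strand), had 65.7 and 47.9 FPKM in A1 and A2 and 35.4 and 33.3 FPKM in B1 and B2 (mean 45.6 ± 15.9). *Sema6c*, a transmembrane class 6 semaphorin on chromosome 2 (196334631 to 196343987, plus strand), had 20.6 and 15.4 FPKM in A and 66.4 and 56.3 FPKM in B (mean 39.7 ± 30.7). *Sema6d* of the same class ran the other way, with 43.3 and 42.4 FPKM in A and 34.1 and 26.8 FPKM in B (mean 36.6 ± 8.75). *Sema6d* was thus above *Sema6c* in both libraries of A and below it in both of B, and the order of these 3 genes by the mean did not exceed the spread between cultures.

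*Sema5b* made up 92.8% of class 5. *Sema3a*, a secreted repellent, made up 70.0% of the 7 genes of class 3 in A and 32.6% in B, and in B1 it stood below *Sema3f*. *Sema3a* (chromosome 4, 18178854 to 18395165, minus strand) had 45.9 and 32.0 FPKM in A1 and A2 and 10.8 and 14.3 FPKM in B1 and B2 (mean 25.8 ± 18.7). The other class 3 genes were *Sema3f* (8.95 FPKM), *Sema3c* (6.67), *Sema3b* (3.53), *Sema3e* (1.89), *Sema3g* (0.213) and *Sema3d* (0.0886). All 6 class 4 genes passed the threshold, led by *Sema4c* at 18.1 ± 3.90 FPKM and *Sema4b* at 12.9 ± 4.67 FPKM. *Sema7a*, which is anchored to the membrane by a lipid and can also signal through integrins, had 3.29 ± 1.12 FPKM.

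The 5 plexins in the set and both neuropilins were above the threshold. *Plxnb2* (chromosome 7, 130135484 to 130161513, minus strand) had 61.1 and 57.4 FPKM in A and 70.0 and 68.3 FPKM in B (mean 64.2 ± 7.01), which ranked 1704 of all gene names. It was the highest of the 61 genes in A2, B1 and B2, and *Sema5b* stood above it in A1. *Plxna3*, a partner of neuropilin-2, had 46.3, 28.1, 28.7 and 21.4 FPKM in A1, A2, B1 and B2 (mean 31.1 ± 8.57). *Plxna2* had 10.9 and 10.3 FPKM in A and 4.63 and 5.33 FPKM in B (mean 7.80 ± 3.98).

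*Plxnd1*, a receptor for Sema3E best known from blood vessels, had 5.27 ± 0.809 FPKM, and *Plxnb3* had 3.08 ± 2.17 FPKM. The neuropilins were far lower than the leading plexins, at 2.58 ± 1.18 FPKM for *Nrp1* and 1.28 ± 0.940 FPKM for *Nrp2*. Together they summed to 2.50 and 2.21 FPKM in A1 and A2 and 4.36 and 6.35 FPKM in B1 and B2, against 103 to 130 FPKM for the 5 plexins.

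*Robo1* and *Robo2* had higher means than any Slit. *Robo1* (chromosome 11, 9209568 to 10143317, plus strand) had 7.55 and 7.63 FPKM in A and 9.40 and 18.4 FPKM in B (mean 10.7 ± 4.45), and its level in replicate B was set apart mainly by B2. *Robo2* had 4.41, 4.66, 6.16 and 7.75 FPKM in A1, A2, B1 and B2 (mean 5.74 ± 1.71). *Robo3*, a receptor of commissural axons, had a mean of 0.141 FPKM. *Robo4*, an endothelial Robo, had 0.348 and 0.347 FPKM in A1 and A2 and is listed at 0 in B1 and B2. It has 2 loci of 9.95 kb each on opposite strands of chromosome 8 and overlaps *LOC100911068* on the same strand, which had 0.465 and 0.437 FPKM in A and 0.106 and 0.267 FPKM in B. How reads were divided among these loci was not tested, so its value is uncertain.

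Among the Slits, *Slit2* had 2.51 and 2.39 FPKM in A and 5.94 and 4.15 FPKM in B (mean 3.75 ± 1.83). *Slit1* had 3.44, 3.15, 3.94 and 1.66 FPKM in A1, A2, B1 and B2 (mean 3.05 ± 0.350), with overlap between the replicates. *Slit3* had 0.303 and 0.344 FPKM in A and 2.01 and 1.83 FPKM in B (mean 1.12 ± 1.13). *Slit3* was therefore under 1 FPKM in both libraries of A and above it in both of B, while the order of *Slit1* and *Slit2* differed between the cultures.

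The netrin system had the lowest summed receptor level of the 4 families, at 3.25 FPKM. Its ligands summed to 9.22 FPKM, above the 7.92 FPKM of the Slits. *Ntn3* (chromosome 10, 13577725 to 13580821, minus strand) had 2.53 and 2.21 FPKM in A and 5.53 and 6.41 FPKM in B (mean 4.17 ± 2.55). *Ntn4*, a netrin of basement membranes, had 2.65, 2.69, 2.38 and 3.42 FPKM in A1, A2, B1 and B2 (mean 2.79 ± 0.160). *Ntn1*, the classic attractant of commissural axons, had 2.51 and 1.94 FPKM in A and 1.65 and 1.55 FPKM in B (mean 1.91 ± 0.442), and *Ntn5* had 0.354 FPKM.

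Of the 6 netrin receptor names, only *Unc5a* reached 1 FPKM, with 0.857, 0.815, 1.53 and 0.845 FPKM in A1, A2, B1 and B2 (mean 1.01 ± 0.248), and it was above 1 FPKM in B1 alone. *Unc5b* had 0.767 and 0.544 FPKM in A and 0.933 and 0.993 FPKM in B. *Unc5c* had a mean of 0.767 FPKM, with 1.68 FPKM in B2 and no more than 0.494 FPKM elsewhere. *Dcc*, which mediates attraction to netrin-1, had 0.765 and 0.893 FPKM in A and 0.186 and 0.436 FPKM in B, and *Unc5d* (0.0580 FPKM) and *Unc5cl* (0.0341 FPKM) were near 0. At 0.436 FPKM the mean coverage of *Dcc* in B2 was 2.98 reads per base.

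Ligands were then compared with receptors. With all 61 genes, the median ligand had 3.20 (A) and 4.08 (B) FPKM, and the median receptor 1.78 and 1.98 FPKM. The ratio was 1.80 in A and 2.06 in B, a mean of 1.93 ± 0.183 (SD, n = 2), and it lay between 1.76 and 2.16 in the single libraries. A mean of at least 1 FPKM was reached by 30 of 33 ligands and 18 of 28 receptors. Among the genes that reached it, the order was the other way round, with a ratio of medians of 0.714 in A and 0.873 in B, so the higher median of the ligands came with the larger share of receptors below 1 FPKM (10 of 28 against 3 of 33). Of these 10 receptors, 5 carry receptor names of the netrin system, among them *Unc5cl*, which is not known as a netrin receptor.

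**Figure D2:**
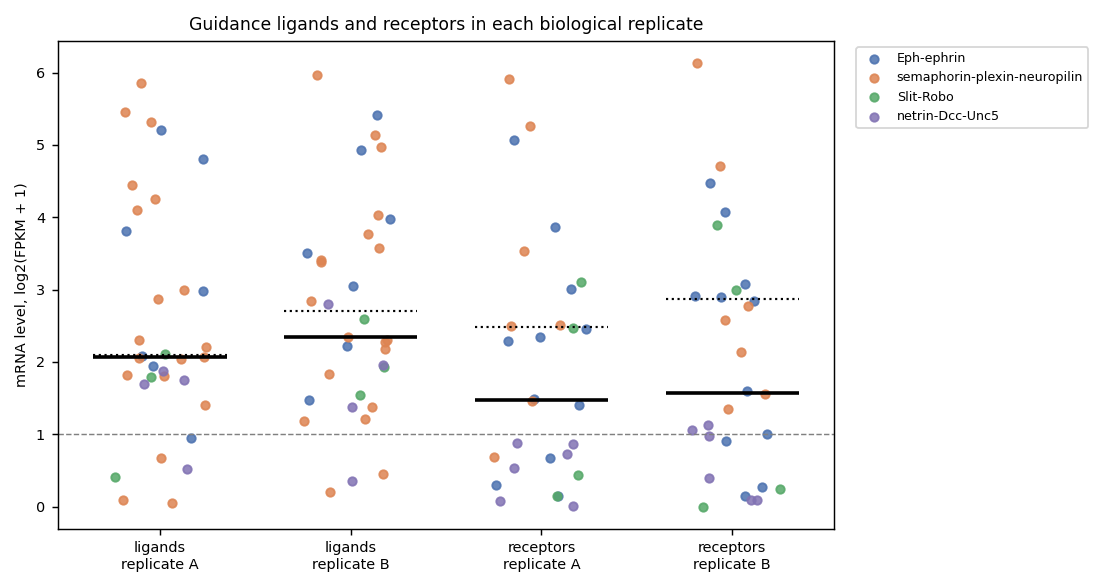
Points are the 33 ligands and 28 receptors in replicates A and B as log2(FPKM + 1), coloured by family. Solid bars are medians of all genes in a column, dotted bars medians of those averaging 1 FPKM or more, and the dashed line stands at 1 FPKM. The solid bars are higher for ligands and the dotted bars higher for receptors in both replicates.

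By summed level the families differed in the balance of ligands and receptors, although the sums also follow the number of genes on each side. The ephrins summed to 99.4 ± 13.4 FPKM and the Eph receptors to 68.9 ± 1.53 FPKM, a ratio of 1.45 ± 0.227. Semaphorins summed to 222 ± 13.0 FPKM against 115 ± 4.79 FPKM for plexins and neuropilins, a ratio of 1.92 ± 0.0331. By medians the order of this family was the opposite, with a ratio of 0.794 ± 0.0351 that was below 1 in all 4 libraries. Netrins summed to 9.22 ± 2.15 FPKM against 3.25 ± 0.601 FPKM for their receptors, a ratio of 2.83 ± 0.140. In the Slit-Robo family the direction was the opposite, with 7.92 ± 2.61 FPKM for Slits and 16.8 ± 5.97 FPKM for Robos, a ratio of 0.474 ± 0.0127. Each of these directions of the sums was found in all 4 libraries. For Slit-Robo the ratio of sums ran from 0.291 in B2 to 0.754 in B1, and the ratio of medians from 0.464 in B2 to 1.24 in B1.

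**Figure D3:**
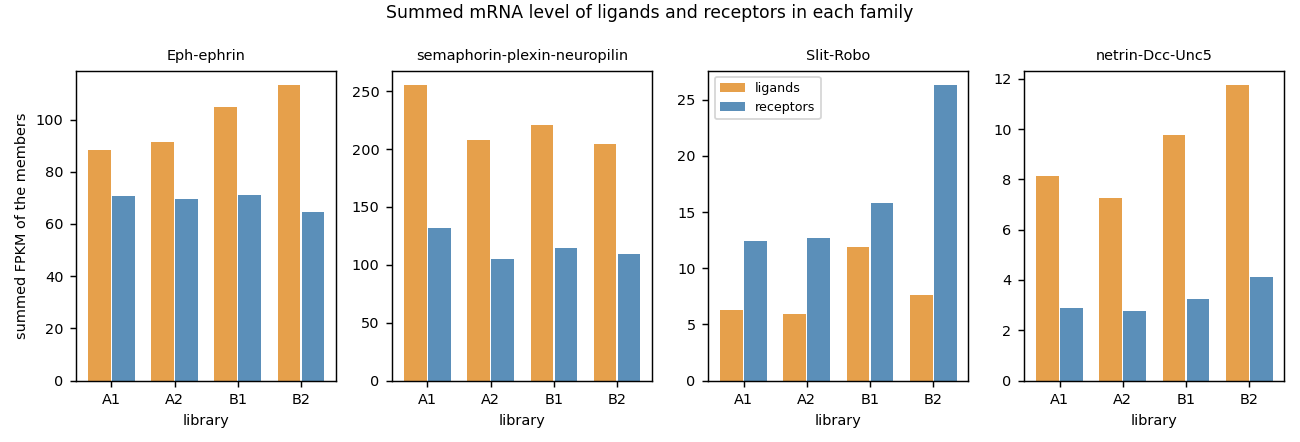
Bars are the summed FPKM of the ligands and of the receptors of a family in each library, on axes that start at 0 and differ in scale between families. Ligands exceed receptors in every library except in the Slit-Robo family, where receptors exceed ligands in every library.

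The spread between the cultures was examined next. A gene was counted as differing when its mean was at least 1 FPKM, its replicates were at least 1 apart on the log2(FPKM + 1) scale, and the libraries of A and B did not overlap. This scale understates the change of low genes. Of the 48 genes 6 (12.5%) met these criteria, against 6.15% of the 10481 genes with at least 1 FPKM. Replicate B was higher for 4 (8.33%, against 4.58%) and replicate A for 2 (4.17%, against 1.57%). No p-value was computed, since A and B are single cultures and their technical libraries are not independent samples.

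The 4 genes higher in B were *Sema6c*, with a difference of 1.72 and 3.41 times the FPKM of A, *Slit3*, with 1.14 and 5.95 times, *Sema3c*, with 1.06 and 2.38 times, and *Ntn3*, with 1.05 and 2.52 times. *Sema3c*, a secreted semaphorin, had 3.69 and 4.20 FPKM in A and 8.06 and 10.7 FPKM in B. *Sema3a* was 1.55 lower in B on the log2 scale, with A at 3.10 times the FPKM of B, and *Plxnb3* was 1.13 lower, with A at 2.98 times. *Plxnb3* had 5.90 and 3.34 FPKM in A and 2.07 and 1.03 FPKM in B, so its technical libraries were themselves far apart. *Sema6c* overlaps *Lysmd1* on the same strand, and *Lysmd1* had 7.56 to 8.68 FPKM in the 4 libraries with no such difference.

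Of the 6 genes, 3 kept to the criteria when the shallow library B2 was left out, namely *Sema6c*, *Slit3* and *Sema3a*. *Sema3c* (0.87), *Ntn3* (0.96) and *Plxnb3* (-0.83) then fell short of a log2 difference of 1. *Slit3* reached a mean of 1 FPKM, and so was counted at all, only through B, with 0.323 FPKM in A and 1.92 FPKM in B. *Slit2* (1.01) and *Plxna2* (-1.04) met the criteria without B2, which gave 5 of 47 genes, beside 5.50% of all genes. The other 42 genes ranged from -0.96 for *Plxna2* to 0.85 for *Efnb2*.

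**Figure D4:**
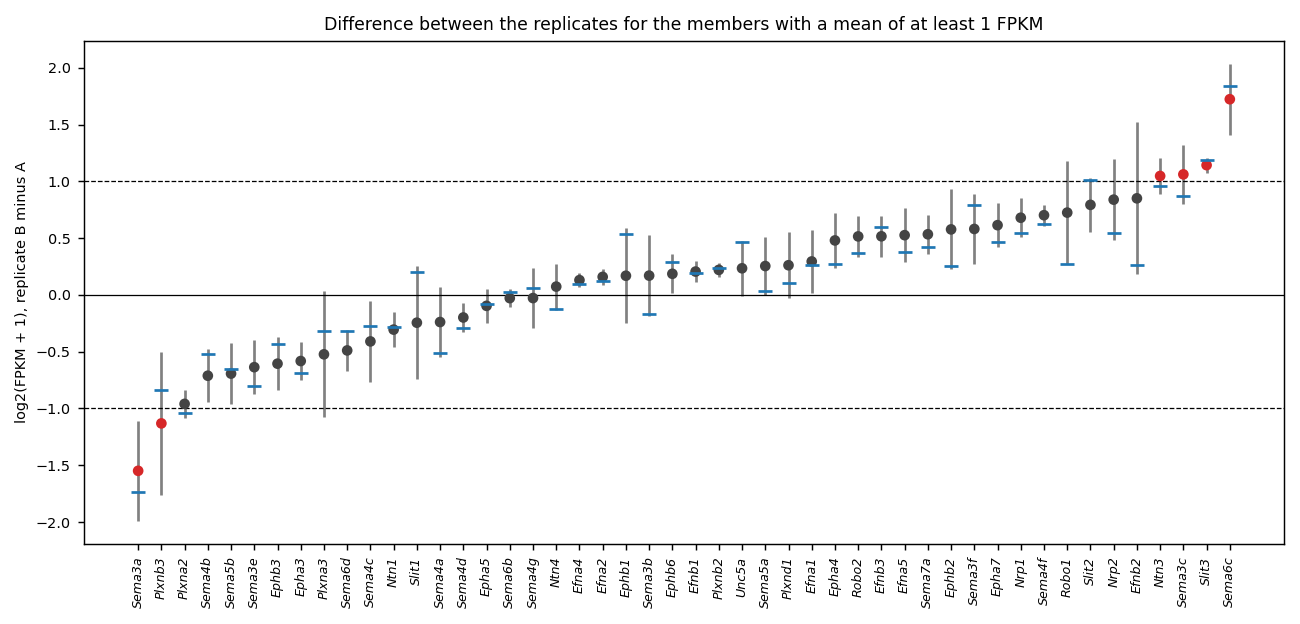
Points are the differences between replicates B and A on the log2(FPKM + 1) scale for the 48 genes averaging 1 FPKM or more, in red for the 6 that met all criteria. Vertical lines span the 4 differences between single libraries of A and B, blue dashes leave out B2, and dashed lines stand at -1 and 1. The range runs from *Sema3a* at -1.55 to *Sema6c* at 1.72.

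The libraries of A and B did not overlap for 37 of the 48 genes (77.1%), against 60.1% of all genes with at least 1 FPKM. Replicate B was higher for 25 of them, 52.1% of the 48 against 28.1%, and replicate A for 12 of the 48, against 32.0%. The median difference of the 48 genes was 0.20, beside -0.03 for all genes, and it was 0.16 for ligands and 0.23 for receptors. The median absolute difference was 0.11 between A1 and A2, 0.29 between B1 and B2 and 0.52 between A and B. Between B1 and B2, 3 of the 48 genes, *Efnb2*, *Slit1* and *Plxnb3*, were at least 2-fold apart in FPKM, against 5.41% of all. On the log2(FPKM + 1) scale *Efnb2* alone was at least 1 apart, against 2.80% of all. The mesenchymal markers, higher in B for 12 of 12, also differed between the cultures. So did *Pdgfra* of the oligodendrocyte lineage list, at 9.29 FPKM in A and 59.4 FPKM in B. Of the 6 genes of that list 5 had a higher mean in B, but *Pdgfra* alone met the criteria, joined by *Olig1* without B2. *Olig2* overlapped, and *Sox10* was lower in B, at 0.371 FPKM in A and 0.146 FPKM in B. Of the 10 progenitor markers, *Fabp7* and *Hes5* met the criteria as lower in B, while 4 of the 10 had a higher mean in B. The part of these markers in the differences of the guidance genes was not tested.

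Other guidance molecules and the effectors of these receptors were looked up from lists. Of 23 other guidance ligands and receptors found, 19 had at least 1 FPKM, 3 were counted as higher in B (against 4.58% of all) and 0 as higher in A (against 1.57%). Without B2, *Cntn1* and *Ncam1* were also counted, as higher in A, where 1.81% of all genes were. The 3 were *Cxcl12*, a chemokine that attracts migrating neurons, at 126 and 132 FPKM in A and 291 and 561 FPKM in B, and *Flrt2* and *Flrt3*, membrane proteins that bind Unc5 receptors. *Flrt2* averaged 1.57 FPKM in A and 5.76 FPKM in B, and *Flrt3* averaged 1.84 and 5.65 FPKM. By the mean of A and B, the highest of this list after *Cxcl12* were *Rgma*, the ligand of neogenin, at 197 ± 82.2 FPKM and *Vegfa*, a neuropilin ligand, at 185 ± 33.0 FPKM. In replicate A the mean of each was above that of *Cxcl12*. These levels of *Rgma* and *Vegfa* lay above that of every one of the 61 genes.

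Of 46 intracellular effectors found, 45 had at least 1 FPKM, 0 were counted as higher in B (against 4.58% of all) and 2 as higher in A (against 1.57%). *Cfl1*, the actin-severing cofilin, had 1426 ± 33.9 FPKM, *Cdc42* 255 ± 65.3 FPKM and *Rnd2* 246 ± 125 FPKM. *Rnd2*, a GTPase that binds plexins, had 318 and 352 FPKM in A and 134 and 181 FPKM in B. *Srgap3*, a Rac GTPase activating protein that binds Robo, had 13.8 and 11.9 FPKM in A and 3.88 and 7.05 FPKM in B. The median difference of the effectors with at least 1 FPKM was -0.05, and that of the other guidance molecules was -0.40, which is lower than the 0.20 of the 61-gene set filtered in the same way.

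Guidance genes were long. The median locus of the 61 genes spanned 39.7 kb in rn6, against 15.3 kb for all gene names, and 26 of them (42.6%) spanned at least 100 kb, against 11.1%. Receptors had a median span of 87.9 kb and ligands of 26.3 kb. The longest were *Dcc*, at 1107 kb, and *Robo1*, at 934 kb. Levels were similar across lengths: the 26 genes of at least 100 kb had a median of 3.28 FPKM and the 29 genes under 30 kb one of 3.53 FPKM, although 9 of the 14 genes with at least 10 FPKM were among the 29.

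Some of the genes are neighbours. *Efna1* and *Efna4* lie 59.8 kb apart on chromosome 2 and had 3.26 and 28.1 FPKM, and *Sema3b* and *Sema3f* lie 78.7 kb apart on chromosome 8 with 3.53 and 8.95 FPKM. *Sema3e*, *Sema3a* and *Sema3d* follow each other on chromosome 4 in that order, the first pair 584 kb apart, and had 1.89, 25.8 and 0.0886 FPKM. *Robo1* and *Robo2* lie 920 kb apart on chromosome 11 and had 10.7 and 5.74 FPKM.

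Promoters were read from RefSeq (GRCr8), which gave a window of 300 bases, 250 before the annotated start and 50 after it, for 48 of the 61 genes. *Efnb3*, *Epha4*, *Slit1*, *Slit2*, *Ntn1*, *Unc5c*, *Unc5d*, *Sema3a*, *Sema3b*, *Sema3f*, *Sema4d*, *Sema4g* and *Sema5a* were not matched. *Plxnb3*, *Plxna3* and *Sema6b* lie on the opposite strand in this build from rn6. The annotated start need not be the start used in these cells. CG dinucleotides, the mark of CpG island promoters, numbered 18 at the median, as for the 11682 genes matched in all, and ranged from 1 in *Sema3c* to 48 in *Plxnd1*. At least 10 were held by 72.9% of the 48 matched genes, which include 11 under 1 FPKM, against 69.1% of all matched genes. Among those with at least 1 FPKM the shares were 81.1% of 37 guidance genes and 86.0% of all. The letters TATAAA, or TTTATA for the other strand, were in the 100 bases before the start of 0 of the 48 matched genes, against 5.10% of all matched genes and 2.82% of those with at least 1 FPKM.

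The 100 bases before the annotated start are given for *Plxnb2*, the highest gene, and for the genes that differed between the cultures and had an entry, because they differ in CG content. Each is written on the strand of the gene, with CG in capitals, and the positions are chr7:122137949-122138048 (minus) for *Plxnb2*, chr2:185426386-185426485 (plus) for *Sema6c*, chr10:20075829-20075928 (plus) for *Slit3*, chr4:18699628-18699727 (minus) for *Sema3c*, chr10:13744556-13744655 (minus) for *Ntn3* and chrX:156646774-156646873 (plus) for *Plxnb3*.
Plxnb2: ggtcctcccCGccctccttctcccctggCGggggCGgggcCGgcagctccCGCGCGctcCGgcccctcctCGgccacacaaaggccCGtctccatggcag
Sema6c: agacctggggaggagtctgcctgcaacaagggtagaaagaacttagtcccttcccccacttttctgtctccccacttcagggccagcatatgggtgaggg
Slit3: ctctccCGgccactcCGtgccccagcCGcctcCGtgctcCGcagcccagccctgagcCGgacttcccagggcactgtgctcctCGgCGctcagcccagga
Sema3c: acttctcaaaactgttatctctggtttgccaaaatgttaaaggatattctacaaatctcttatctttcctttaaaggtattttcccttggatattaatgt
Ntn3: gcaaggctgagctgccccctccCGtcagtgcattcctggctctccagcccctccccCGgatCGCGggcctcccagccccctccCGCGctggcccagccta
Plxnb3: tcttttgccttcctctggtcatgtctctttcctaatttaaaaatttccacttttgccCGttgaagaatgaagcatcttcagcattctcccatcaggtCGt
The stretch of *Plxnb2* holds 10 CG dinucleotides, that of *Slit3* 8 and that of *Ntn3* 6, while *Plxnb3* has 2 and *Sema6c* and *Sema3c* have 0. The genes higher in replicate B thus include stretches both with and without CG. *Sema6c*, without CG in this stretch, had 39.7 FPKM, and *Slit3*, with 8, had 1.12 FPKM.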

How the data were processed

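PolyA RNA-seq libraries A1, A2, B1 and B2 were grouped by their sample titles. Per the study's methods, the authors aligned reads to rn6 with STAR and assembled transcripts with stringtie. Rsubread and DESeq2 are named there for FPKM, while the tables have the layout of stringtie, and tool versions are not given in the sources used here. The FPKM and TPM values were deposited by the authors and used as such, TPM as an alternative. The coverage deposited by the authors is mean read depth, not scaled for library depth, and was used to describe depth.

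FPKM was summed over rows of a gene name, technical libraries were averaged within A and B, and differences were taken between mean log2(FPKM + 1) values. Criteria were applied to all 17337 gene names and checked on simulated data. No test was run. Values in every library are given for the 3 highest ligands and receptors of each family with at least 1 FPKM, for genes counted as differing, and for the nearest to 1 FPKM on either side. Other genes given in every library, such as *Dcc*, *Robo4* and *Efnb2*, were chosen after their values were seen. The gene set, lists and thresholds were chosen with earlier results of these data known. Alternatives were other thresholds, pseudocount, scaling and libraries left out. Python 3.11.15, pandas 2.3.3, numpy 2.4.6 and matplotlib 3.10.9 were used.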

Additional observations from a re-analysis of the deposited data

Results flagged for a closer look

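Of 26 values examined across the 4 libraries, 25 of them levels of single genes, 2 had a library far from the other 3. *Robo1* had 18.4 FPKM in B2, against 7.55 to 9.40 FPKM in the others. *Unc5a* had 1.53 FPKM in B1, against 0.815 to 0.857 FPKM. Chance gives about 1 such value in 20 for independent samples, which these technical libraries are not. The other guidance genes were not examined in this way. Among them, *Efnb2* had 10.4 FPKM in B2, against 2.99 to 4.09 FPKM in the other libraries. *Unc5c* had 1.68 FPKM in B2, against 0.422 to 0.494 FPKM.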

How the results depend on the processing

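For 4 results, 26 of 33 alternatives gave values within 1 SD in the same direction or counts of genes within 1.5 times. Of the rest, 6 moved further and 1 reversed direction. The SD of the median difference, 0.0352, is not a spread over cultures, because A and B give a single difference. The ratio of median ligand to median receptor FPKM (1.93) turned to 0.793 with only genes of at least 1 FPKM, and was 1.66 for sums and 1.42 for secreted ligands alone. With 1 replicate left out it ranged from 1.80 to 2.06, and the number of genes with at least 1 FPKM from 43 to 49, against 48, and at a threshold of 5 FPKM it was 26. The genes differing between A and B, 6, became 3 above a 5 FPKM mean (5.59% of all genes) and 20 at a log2 difference of 0.58, where 16.5% of all genes were counted. They were 9 with a pseudocount of 0.1 (8.53% of all genes), 8 with TPM (6.91%) and 5 without B2 (5.50%), and 3 of those 5 were among the 6. Without B1, an alternative chosen after seeing the data, 9 genes were counted (8.47% of all), the 6 with *Efnb2*, *Nrp2* and *Robo1*, and the median difference moved from 0.20 to 0.24. The cause was not tested beyond the genes and libraries each alternative leaves out. No called difference of a named gene changed sign under any alternative. Leaving out a library could not change it, because the libraries of A and B did not overlap for these genes. Among named genes that were not called, the sign of the log2 difference did change. Without B2 it went from -0.24 to 0.20 for *Slit1* and from 0.07 to -0.12 for *Ntn4*. Without B1 it went from 0.17 to -0.20 for *Ephb1*. No paired analysis was possible because there is a single condition. The counts of the other lists without B2 were also chosen after seeing the data. Coverage was lowest in B2, and without fragment numbers the precision of values below 1 FPKM is unknown.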
